A study of Mus musculus with 5 samples.

Results

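The subject is the transporter genes of the ABC, Slc22 and Slco families in mouse liver tumours that carry or lack lnc-CTHCC, a long non-coding RNA. Members were chosen by gene symbol, with earlier results of these data known. They are rows whose symbol starts with Slc22a, with Slco, or with Abc followed by a letter from a to g and a digit. Slco1b2, Slco1a1, Abcb11, Abcb4, Abcc2, Abcc3 and Abcc4, hepatocyte transporters of bile acids, bile phospholipid and conjugates, were left out. This gave 83 of the 22287 genes in the table, on 19 chromosomes, of which 45 are ABC, 26 are Slc22 and 12 are Slco genes. RNA was sequenced from 2 wild-type (WT) and 3 lnc-CTHCC-/- (KO) liver tumours of C57BL/6 mice, and both groups had received the carcinogen DEN together with CCl4, a liver toxicant, for 5 months. Not given in the sources used here are how the deletion was made, which cells carry it, and the age and sex of the mice. Whether tumours of a group came from separate animals is not given either. The p-values may therefore measure only spread within an animal or technical spread, and not spread between animals. Genotypes were taken as labelled, and lnc-CTHCC itself was not analysed here.

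Transporters of these families set what enters and leaves a hepatocyte. Slc22 carriers (organic cation, carnitine and organic anion transporters) and Slco carriers (organic anion transporting polypeptides) take up drugs, hormones, vitamins and bile pigments across the blood-facing membrane. ABC proteins use ATP to drive lipids, sterols, drugs, conjugates, haem precursors and fatty acyl groups out of the cell or into organelles, and their Abce and Abcf branches are soluble proteins that act on ribosomes instead. In liver cancer the drug carriers are studied because they bear on how much of a medicine reaches the tumour cell.

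Levels are given in FPKM, which divides the fragments of a gene by its length and by the total of the library, so that levels of different genes can be compared per length. The depth of the libraries is unknown. The FPKM of a library summed to between 526229 and 552619, of which the 83 genes held 0.0811% in WT 1, 0.126% in WT 2, 0.0935% in KO 1, 0.0957% in KO 2 and 0.107% in KO 3. The markers of the hepatocyte summed to between 95193 and 123500 FPKM, those of endothelial cells to between 48.3 and 81.7, those of macrophages to between 50.7 and 95.2, and those of T and NK cells to between 0.83 and 3.08. Markers of B and plasma cells summed to 90.0 and 240 FPKM in the WT libraries against 64.8, 72.3 and 25.1 in the KO libraries. In such bulk tissue fewer cells of a type and less RNA per cell cannot be told apart.

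Of the 83 genes, 39 had a mean of at least 1 FPKM over the 5 libraries and were tested (47.0%, against 45.5% of all genes). Abcd3, Slc22a18, Abca6 and Abcg5 were among the highest. Another 32 genes had means under 0.1 FPKM, and 12 of these were listed at 0 in every library. The remaining 12 had means between 0.1 and 1 FPKM.

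**Figure D1:**
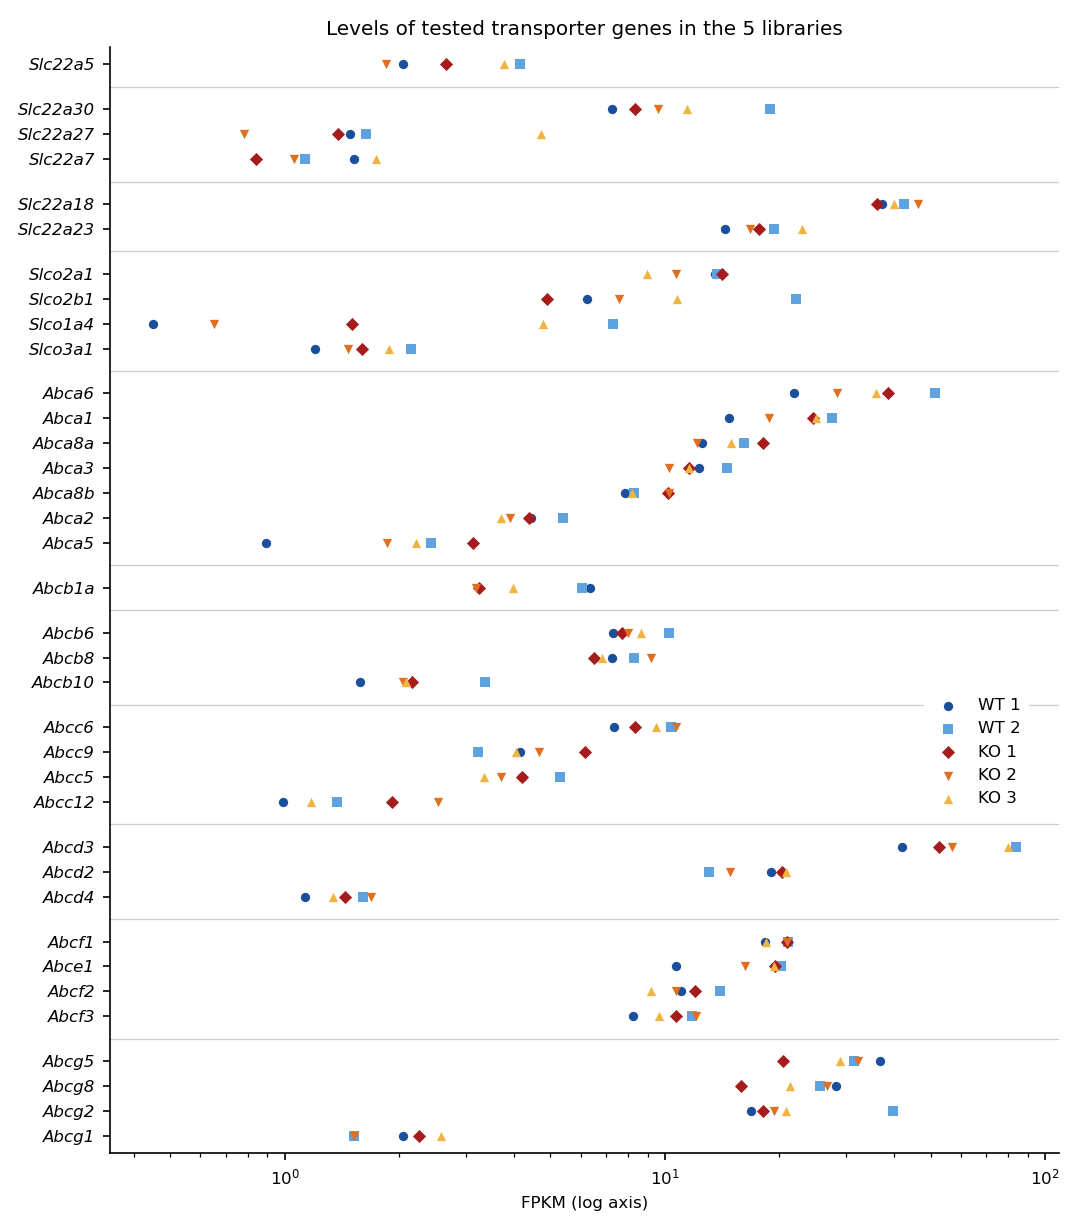
FPKM (horizontal log axis) of 36 of the 39 tested genes in WT 1, WT 2, KO 1, KO 2 and KO 3, 1 point per library, with grey lines between groups of related function. Levels run from 0.45 FPKM (Slco1a4 in WT 1) to 83.9 FPKM (Abcd3 in WT 2), and the square of WT 2 is the rightmost point in 17 of the 36 genes.

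KO was set against WT to see which transporter transcripts differ in tumours without lnc-CTHCC. No transporter gene passed the test (limma, adjusted p = 0.999 for each of the 39, where 0.00987% of all genes tested passed). Abcb1a, a drug efflux pump also called P-glycoprotein, stood closest to it, averaging 6.2 ± 0.198 FPKM over WT (SD, n = 2) against 3.47 ± 0.442 FPKM over KO (SD, n = 3). Abcb1a was the 1 member of 39 with an unadjusted limma p under 0.05, or 2.56%, against 3.23% of all genes. It was lower in KO, as were 1.45% of all genes by that rule, and no member was higher by it, against 1.78% of all genes. In the authors' deposited table no member has a false discovery rate under 0.05, against 0.162% of the 22287 genes.

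The log2 differences of the members, taken as KO minus WT after a log2(FPKM + 1) transform, ran from -0.69 (Abcb1a) to 0.40 (Abca5), and 37 of 39 were smaller than 0.5 in size. They were above 0 in 20 genes and below 0 in 19, with a median of 0.01 against 0.05 for all genes tested, of which 61.4% were above 0. The libraries of the genotypes did not overlap in 3 members (7.69%, against 15.1% of all genes), and all 3, Abcb1a, Abca3 and Abca2, were lower in KO (5.29% of all genes), with 0 higher (9.78% of all genes). The 95% interval of the difference lay within 1 log2 unit of 0 in 32 of 39 members, against 92.7% of all genes. For the other 7 a difference of that size lay within the interval.

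**Figure D2:**
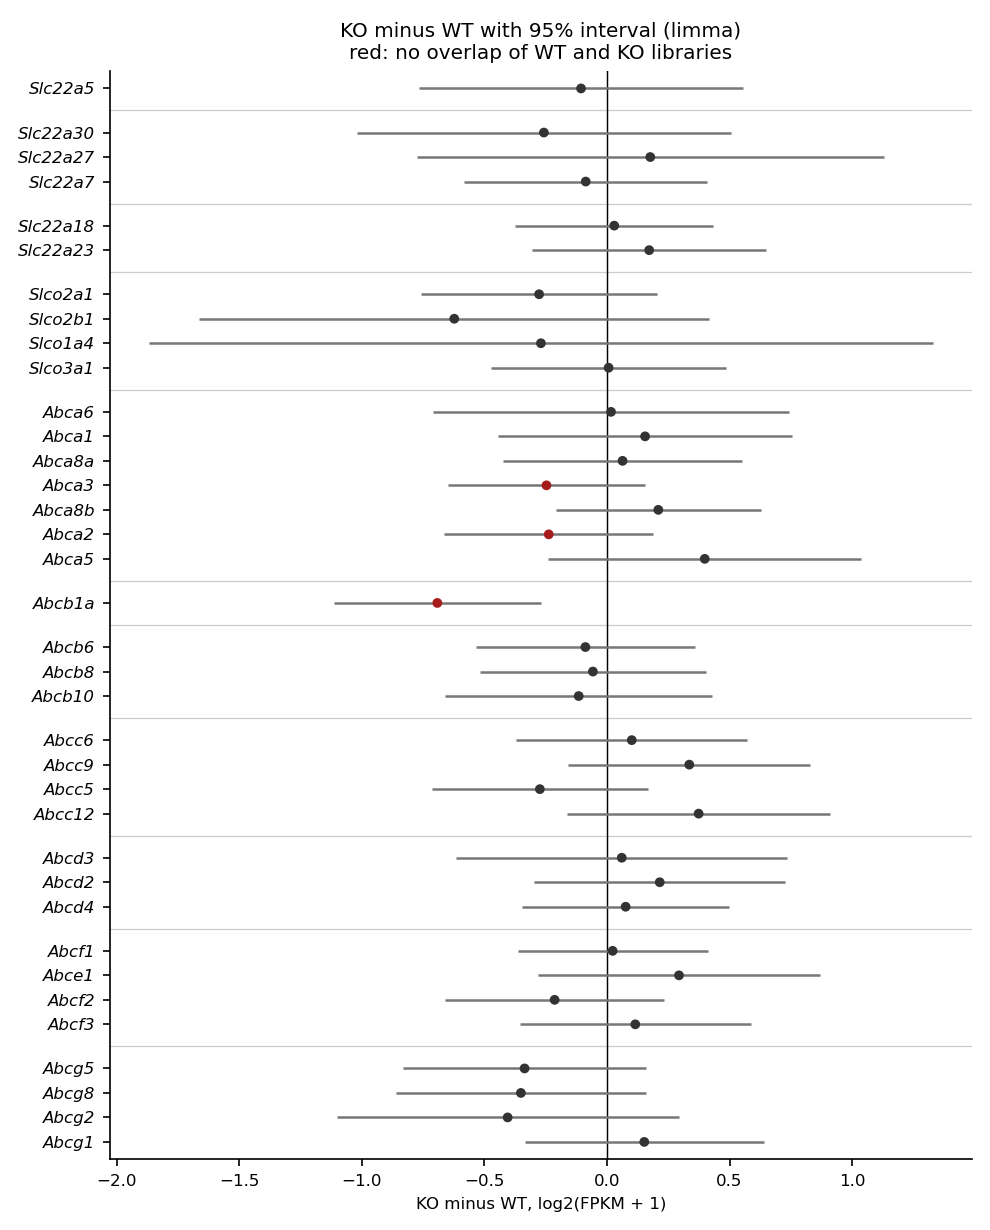
Difference KO minus WT in log2(FPKM + 1) units (horizontal axis) with its 95% interval from limma for 36 of the 39 tested genes. Abcb1a, at -0.69, is the 1 gene plotted whose interval does not reach 0 without adjustment for the number of genes, and red points mark Abcb1a, Abca3 and Abca2.

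The WT libraries differed from each other in 1 direction across most members. WT 2 was above WT 1 in 32 of the 39 members (82.1%, against 72.3% of all genes), with a median difference of 0.34 on the log2(FPKM + 1) scale against 0.23 for all genes. WT 2 was the highest of the 5 libraries in 20 members (51.3%, against 35.2% of all genes) and WT 1 the lowest in 20 (51.3%, against 46.7%). KO 1 was the highest in 4 members (10.3%, against 31.3% of all genes). The count of members higher in KO moved with the WT library left out. It was 7 of 39 (17.9%, against 39.8% of all genes) without WT 1 and 29 of 39 (74.4%, against 73.7%) without WT 2. It was 16 of 39 (41.0%) after median-ratio rescaling, where 50.6% of all genes were higher. The factors of that rescaling, taken over the whole table, were 0.884 for WT 1 and 1.08 for WT 2.

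**Figure D3:**
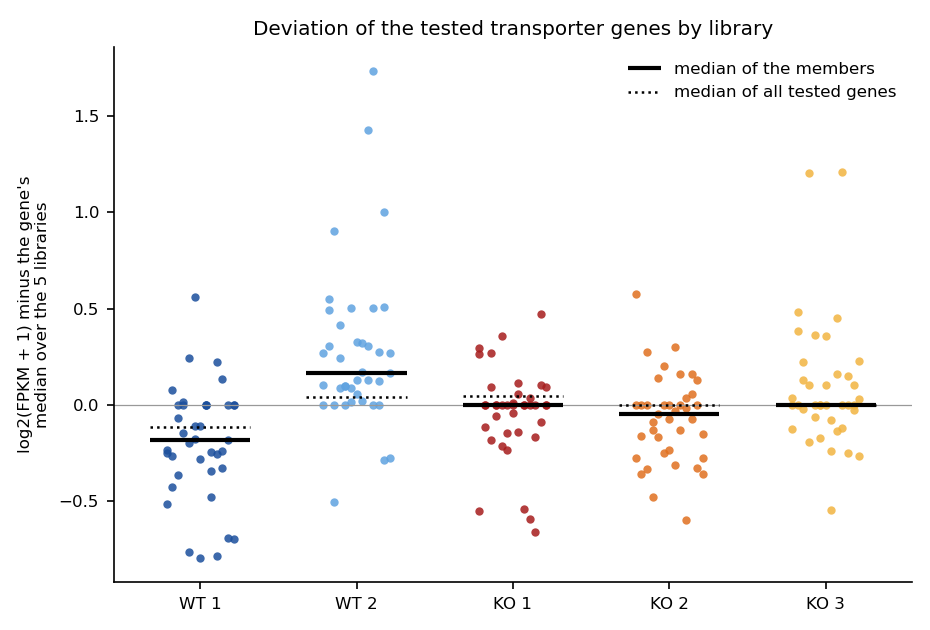
For each library, the log2(FPKM + 1) of the 39 tested genes minus the gene's own median over the 5 libraries (vertical axis), 1 point per gene. Solid bars are the medians of the members, at -0.18 in WT 1 and 0.17 in WT 2, and dotted bars those of all genes tested, at -0.11 and 0.04.

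Among carriers of organic cations and carnitine, 2 of 7 were tested. Slc22a5 (OCTN2), the carnitine carrier that feeds mitochondrial fatty acid oxidation, measured 2.04 and 4.16 FPKM in the WT libraries against 2.66, 1.85 and 3.78 in the KO libraries. WT 2 and KO 3 were its high libraries, and its log2 difference was -0.11 (95% interval -0.77 to 0.56), with 0.28 without WT 2 and 0.079 without KO 2. Slc22a3 (OCT3), a carrier of monoamines, reached at most 0.36 FPKM, and Slc22a4, an ergothioneine carrier, at most 0.27 FPKM. Slc22a21, a carnitine carrier best known from testis, reached 0.07 FPKM, and Slc22a2 (OCT2), the cation carrier of the kidney, was listed at 0 in all 5 libraries together with Slc22a16.

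Among the 14 organic anion carriers of the Slc22 family, 3 were tested. Slc22a30 was the most abundant of them and measured 7.25 and 18.9 FPKM in the WT libraries against 8.35, 9.61 and 11.4 in the KO libraries. Its KO values lay between those of WT 1 and WT 2, with a log2 difference of -0.26 (95% interval -1.02 to 0.50). Slc22a7 (OAT2), a carrier of organic anions and nucleotides of the liver, measured 1.52 and 1.13 FPKM in the WT libraries against 0.84, 1.06 and 1.74 in the KO libraries, with a log2 difference of -0.09, which was 0.035 without WT 1 and 0.036 without KO 1. Slc22a27 measured 1.48 and 1.64 FPKM in the WT libraries against 1.38, 0.78 and 4.71 in the KO libraries, so that KO 3 alone stood above WT. The kidney carriers Slc22a6 (OAT1) and Slc22a8 (OAT3) and the urate carrier Slc22a12 (URAT1) were at 0 to 0.06 FPKM. Slc22a13 and Slc22a13b did not exceed 0.1 FPKM, and Slc22a20 and Slc22a22 were listed at 0.

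Slc22a19, Slc22a26, Slc22a27, Slc22a28, Slc22a29 and Slc22a30 follow each other in that order on chromosome 19 between 7673061 and 8405111, all on the minus strand, ahead of Slc22a8 and Slc22a6 on the plus strand. Means over the libraries in this row of 8 genes ran from 0 (Slc22a19, Slc22a6) to 11.1 FPKM (Slc22a30). Slc22a26 to Slc22a30 are close copies of each other, and any reads they share make their values uncertain.

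Of the 5 other carriers of the Slc22 family, 2 were tested. Slc22a18, an orphan carrier of an imprinted region, was among the most abundant of the 83 genes and measured 37.2 and 42.7 FPKM in the WT libraries against 36.2, 46.4 and 40.1 in the KO libraries. Its highest library was 1.28 times its lowest, where the median of the tested members was 1.79 times and that of all genes 1.56 times, and its log2 difference was 0.03 (95% interval -0.37 to 0.43), but -0.068 without WT 1 and -0.063 without KO 2. Slc22a23, whose substrate is unknown, measured 14.4 and 19.4 FPKM in the WT libraries against 17.7, 16.8 and 22.9 in the KO libraries, with a log2 difference of 0.17 that was -0.033 without WT 1. Slc22a15 reached 1.04 FPKM in WT 2 alone, Slc22a17 at most 0.23 FPKM and Slc22a14 at most 0.02 FPKM.

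Of the 12 Slco genes, 4 were tested, 1 with a higher and 3 with a lower mean log2 value in KO. Slco2b1, a carrier of steroid sulfates and drugs, measured 6.25 and 22.1 FPKM in the WT libraries against 4.89, 7.58 and 10.8 in the KO libraries. WT 2 was far above the other libraries and WT 1 lay within the KO range. The log2 difference of Slco2b1 was -0.62 (95% interval -1.66 to 0.42), but 0.21 without WT 2, -1.46 without WT 1 and -0.37 without KO 1. The 7 macrophage markers, of a cell that also expresses Slco2b1, were higher in KO for 6 and lower for 1 by mean log2 value, with none at 0 throughout. They summed to 56.8 and 77.1 FPKM in the WT libraries against 93.1, 50.7 and 95.2 in the KO libraries, and their part in the result was not tested.

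Slco1a4, an uptake carrier of organic anions and cardiac glycosides, varied most among the tested members, with its highest library 16.2 times its lowest. It measured 0.45 and 7.31 FPKM in the WT libraries against 1.5, 0.65 and 4.79 in the KO libraries, so each genotype held low and high libraries. Its log2 difference was -0.27 (95% interval -1.87 to 1.33), and turned to 0.99 without WT 2 and 0.13 without KO 2. Slco1b2, its neighbour on chromosome 6 and not a member, measured 11.4 and 34.3 FPKM in the WT libraries against 15.2, 8.70 and 30.7 in the KO libraries, also with WT 2 and KO 3 as the high libraries.

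Slco2a1, the prostaglandin carrier, which endothelial cells express, measured 13.6 and 13.7 FPKM in the WT libraries against 14.1, 10.7 and 8.96 in the KO libraries. KO 1 was above both WT libraries, and the log2 difference was -0.28 (95% interval -0.76 to 0.20), with -0.44 without KO 1 and -0.14 without KO 3. The 7 endothelial markers, all higher in KO by mean log2 value and none called, summed to 54.6 and 48.3 FPKM in the WT libraries against 81.7, 51.3 and 62.2 in the KO libraries, and their part in the result was not tested. Slco3a1 was at 1.2 to 2.15 FPKM with a log2 difference of 0.01. The other 8 Slco genes, among them the thyroid hormone carrier Slco1c1 and the testis genes Slco6c1 and Slco6d1, did not exceed 0.08 FPKM.

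Drug efflux at the plasma membrane is shared by Abcb1a, Abcb1b, Abcg2 and several Abcc proteins. Mice carry a pair of P-glycoprotein genes in place of the human ABCB1. Abcb1a (chromosome 5, 8660077 to 8748575, plus strand) measured 6.34 and 6.06 FPKM in the WT libraries against 3.24, 3.19 and 3.98 in the KO libraries. Every KO library lay below both WT libraries, and the KO mean was 0.56 times the WT mean. The log2 difference of Abcb1a was -0.69 (SE 0.186, 95% interval -1.11 to -0.27, limma adjusted p = 0.999), with an unadjusted limma p of 0.00498. It stayed between -0.77 and -0.65 with any library left out. The authors' deposited table gives Abcb1a a log2 fold change of -0.84 and a false discovery rate of 0.0715. The 4 markers of B and plasma cells, whose sums were lower in each KO library too, were led by Igkc, the immunoglobulin kappa constant chain, and Jchain, which joins secreted antibodies. Both were below WT in each KO library, with log2 differences of -1.54 and -1.58, while the genotypes overlapped for the other two, Cd79a and Ms4a1. Sums of the T and NK cell markers, all with means under 1 FPKM, were lower in each KO library as well. The sums were 3.08 and 1.43 FPKM in the WT libraries against 1.12, 0.83 and 0.9 in the KO libraries. Of these markers Nkg7 alone was below WT in each KO library, while the genotypes overlapped for Cd3e, Cd3d, Cd8a and Ncr1. Among hepatocyte markers, Ttr and Serpina1c were lower in each KO library, while the genotypes overlapped for Alb, Apoa1 and Cyp2e1. Other cell types went the other way by mean log2 value of the tested markers. Higher in KO were 7 endothelial, 4 cholangiocyte and 2 neutrophil markers, with 0 lower. Macrophage markers were higher for 6 and lower for 1, those of stellate cells and fibroblasts for 4 and 2, and those of red cells for 2 and 1. The part of any of these cells in the Abcb1a result was not tested.

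Abcb1b, its paralogue, lay under the expression filter, where the WT libraries gave 0.49 and 1.51 FPKM against 0.82, 0.64 and 0.32 in the KO libraries. WT 2 was its highest library and KO 3 its lowest, with KO 1 and KO 2 between the WT values. The sequences of the pair are alike, and reads shared between them could have been counted for either. Abcb5, a further relative, was listed at 0 throughout. Abcb4, a neighbour on the chromosome and not a member, exports phosphatidylcholine into bile, and measured 38.8 and 39.5 FPKM in the WT libraries against 44.3, 32.2 and 37.2 in the KO libraries.

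Abcg2 (BCRP), which exports drugs, urate and porphyrins, measured 16.9 and 39.7 FPKM in the WT libraries against 18.1, 19.3 and 20.8 in the KO libraries. The 3 KO libraries lay close together and between the WT libraries. The log2 difference of Abcg2 was -0.41 (95% interval -1.10 to 0.29), and was -1.0 without WT 1 (limma adjusted p = 0.125) and 0.19 without WT 2. Red cell precursors also express Abcg2, and of 4 red cell markers 3 were tested, 2 higher and 1 lower in KO. Alas2, the enzyme that starts haem synthesis in these precursors, measured 9.77 and 29.7 FPKM in the WT libraries against 8.55, 8.76 and 8.67 in the KO libraries, so WT 2 was its highest library as for Abcg2. The globins Hba-a1 and Hbb-bs, which carry most of the summed level, were lowest in WT 2, and that sum was 243 FPKM in WT 2 and between 312 and 523 FPKM in the others. The part of red cell precursors in the Abcg2 result was not tested.

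Of the 7 Abcc genes, 4 were tested. Abcc6, a hepatocyte protein needed for the release of ATP that restrains calcification elsewhere in the body, measured 7.35 and 10.4 FPKM in the WT libraries against 8.34, 10.7 and 9.47 in the KO libraries, with a log2 difference of 0.10 (95% interval -0.37 to 0.57) that was -0.12 without WT 1. Abcc12 measured 0.99 and 1.37 FPKM in the WT libraries against 1.91, 2.53 and 1.17 in the KO libraries, with KO 3 between the WT libraries. Its log2 difference was 0.37, and it was 0.25 without WT 1, 0.21 without KO 2 and 0.56 without KO 3. Abcc9 (SUR2), a subunit of ATP-sensitive potassium channels found in mural cells, measured 4.16 and 3.23 FPKM in the WT libraries against 6.17, 4.65 and 4.06 in the KO libraries, with a log2 difference of 0.34 that was 0.19 without WT 2 and 0.19 without KO 1. The 6 stellate cell and fibroblast markers were higher in KO for 4 and lower for 2 by mean log2 value. They summed to 55.4 and 68.7 FPKM in the WT libraries against 92.5, 60.8 and 72.0 in the KO libraries, also highest in KO 1. Dcn alone held 65.7 FPKM of the sum in KO 1. Lrat, Pdgfrb, Col1a1 and Dcn were highest in KO 1, but Des was highest in WT 1 and Acta2 in WT 2. The part of these cells in the Abcc9 values was not tested.

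Abcc5, an exporter of cyclic nucleotides, measured 4.22 and 5.30 FPKM in the WT libraries against 4.22, 3.70 and 3.35 in the KO libraries, so that WT 1 and KO 1 were tied. Its log2 difference was -0.27 (95% interval -0.71 to 0.17), and -0.14 without WT 2. Abcc1 (MRP1), an exporter of glutathione conjugates, reached at most 0.64 FPKM, Abcc10 at most 0.54 FPKM, and Abcc8 (SUR1), a subunit of the potassium channel of pancreatic beta cells, at most 0.01 FPKM.

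Sterol export into bile is carried out by Abcg5 and Abcg8, which work as a dimer of both proteins. Abcg5 measured 36.8 and 31.4 FPKM in the WT libraries against 20.5, 32.2 and 28.9 in the KO libraries. Abcg8 measured 28.2 and 25.6 FPKM in the WT libraries against 15.9, 26.7 and 21.4 in the KO libraries. The order of the libraries was the same for both genes, from WT 1 over KO 2, WT 2 and KO 3 down to KO 1, and Abcg5 was 1.21 to 1.35 times Abcg8 in each. The log2 differences were -0.34 (95% interval -0.83 to 0.16) for Abcg5 and -0.35 (95% interval -0.86 to 0.16) for Abcg8, and leaving out KO 1 brought them to -0.15 and -0.16.

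The pair lies head to head on chromosome 17, with Abcg5 on the minus and Abcg8 on the plus strand. The stretch between their RefSeq starts (build GRCm38.p6, chr17:84683012-84683120, plus strand) is shown because both genes are read away from it. It is the upstream sequence of each gene at once. RefSeq and GENCODE also give Abcg8 a start further upstream, within the span of Abcg5. The strand setting of the counting is not stated, so reads of overlapping stretches cannot be assigned to either gene with certainty. Capitals mark matches to GATAA, the core of GATA factor sites, and TATAAA, the TATA box, found on either strand.
Abcg5 to Abcg8, starts to starts: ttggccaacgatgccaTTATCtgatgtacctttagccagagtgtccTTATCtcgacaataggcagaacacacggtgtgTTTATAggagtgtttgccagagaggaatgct
Of its 109 bases, 45.9% were G or C, against a median of 55.0% in the 109 bases before each of 32851 RefSeq starts. The region held 2 matches to GATAA, which occurs in 9.36% of those windows, and 1 to TATAAA, which occurs in 5.90%, all 3 on the minus strand, and the capitals show them as read on the plus strand. No match was found to CCAAT, present in 20.1% of the windows. The same held for GGGCGG, the core of the GC box, present in 25.6%. Neither CAAGG, present in 22.8%, nor the sequence ATTGAT, present in 2.60%, was found. Searches covered both strands, and the motifs matched here did not overlap each other.

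**Figure D4:**
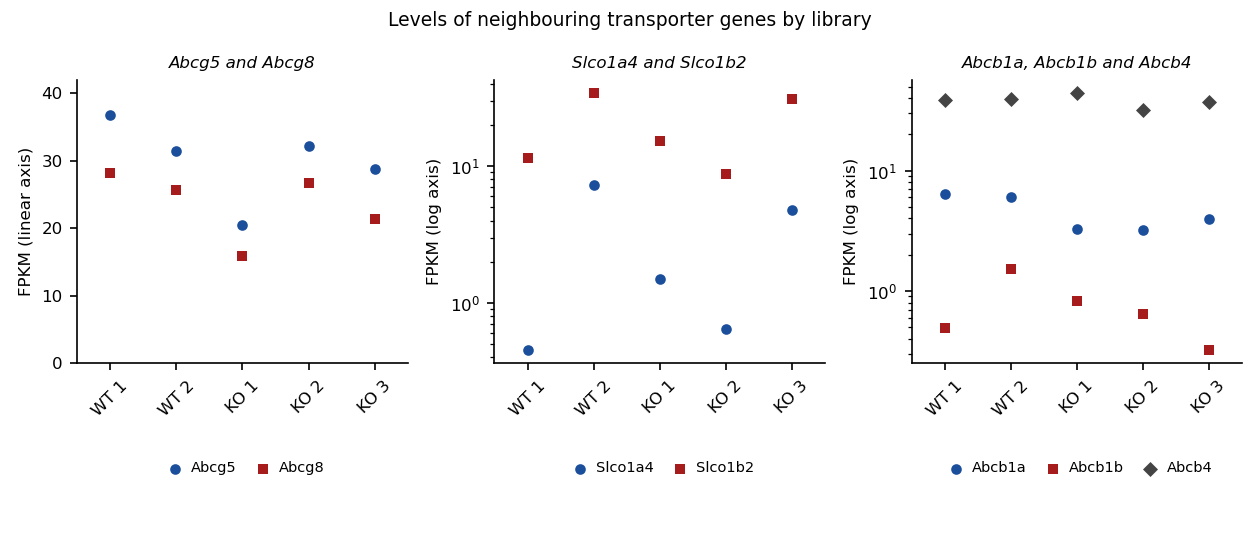
FPKM of neighbouring genes in the 5 libraries (vertical axes, linear from 0 in the first panel and logarithmic in the others). Abcg5 and Abcg8 share their order of libraries, from 36.8 and 28.2 FPKM in WT 1 to 20.5 and 15.9 FPKM in KO 1, Slco1a4 and Slco1b2 are both highest in WT 2, and Abcb1a is lower in each KO library while the genotypes overlap for Abcb4.

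The lipid exporters of the Abca branch held 7 tested genes among 16, of which 5 had a higher and 2 a lower mean log2 value in KO. Abca1, which loads cholesterol and phospholipid onto apolipoprotein A-I to start HDL, measured 14.7 and 27.6 FPKM in the WT libraries against 24.5, 18.8 and 25.0 in the KO libraries. The KO values lay between those of WT 1 and WT 2, and the log2 difference was 0.16 (95% interval -0.44 to 0.76), turning to -0.28 without WT 1 and reaching 0.59 without WT 2. Its partner in sterol efflux, Abcg1, was at 1.52 to 2.57 FPKM with a log2 difference of 0.15. Abcg3, at 0.61 to 1.3 FPKM, missed the filter with a mean of 0.982 FPKM, and Abcg4 did not exceed 0.01 FPKM.

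Abca3, a lipid pump of lysosome-related organelles best known from lung surfactant, measured 12.3 and 14.6 FPKM in the WT libraries against 11.6, 10.3 and 11.6 in the KO libraries. Abca2, a related pump of endolysosomes, measured 4.43 and 5.38 FPKM in the WT libraries against 4.38, 3.92 and 3.70 in the KO libraries. In both genes all KO libraries lay below both WT libraries, for Abca2 by 0.05 FPKM at the nearest, and 5.29% of all genes showed such an order. Their log2 differences of -0.25 and -0.24 had 95% intervals of -0.65 to 0.16 and -0.66 to 0.19, and were -0.13 and -0.12 without WT 2.

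Abca8b, Abca8a, Abca9, Abca6 and Abca5 form a row on chromosome 11 between 109932190 and 110337716, all on the minus strand. Abca6 was the highest of them and measured 21.9 and 51.5 FPKM in the WT libraries against 38.7, 28.4 and 35.9 in the KO libraries, with a log2 difference of 0.02 that ran from -0.58 without WT 1 to 0.62 without WT 2 and was also below 0 without KO 1 or KO 3. Abca5 measured 0.89 and 2.43 FPKM in the WT libraries against 3.12, 1.86 and 2.21 in the KO libraries. WT 1 was the low library of Abca5, whose log2 difference of 0.40 (95% interval -0.24 to 1.04), the highest of the members, became -0.03 without it. It was 0.83 without WT 2 and 0.25 without KO 1. Abca8a and Abca8b, close relatives that may share reads, had means of 14.8 and 8.95 FPKM with log2 differences of 0.06 and 0.21. Abca9, at 0.40 to 1.34 FPKM, missed the filter with a mean of 0.990 FPKM. Abca4, a retinoid transporter of the eye, reached 0.13 FPKM, and Abca12 to Abca17 were at 0 to 0.01 FPKM.

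Transporters of organelle membranes, which assemble from a pair of subunits, had the Abcd genes and most Abcb genes among them. Abcd3 (PMP70), which brings branched and dicarboxylic fatty acyl groups and bile acid precursors into peroxisomes, had the highest mean of all 83 genes. It measured 42.1 and 83.9 FPKM in the WT libraries against 52.5, 56.9 and 80.1 in the KO libraries, with WT 2 and KO 3 high, and a log2 difference of 0.06 (95% interval -0.61 to 0.74). It was -0.43 without WT 1, 0.55 without WT 2 and -0.12 without KO 3.

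Abcd2 (ALDRP), another peroxisomal fatty acid transporter, measured 19.0 and 13.1 FPKM in the WT libraries against 20.3, 14.9 and 20.9 in the KO libraries. WT 2 was the lowest library of Abcd2, unlike in Abcd3, and its log2 difference was 0.22 (95% interval -0.30 to 0.73). It ran from -0.038 without WT 2 to 0.47 without WT 1. Abcd4, a lysosomal protein of vitamin B12 export, was at 1.13 to 1.69 FPKM.

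The mitochondrial transporters Abcb10 (haem synthesis) and Abcb8 and the porphyrin transporter Abcb6 had log2 differences between -0.12 and -0.06. Abcb6 and Abcb8 had means of 8.38 and 7.62 FPKM, and Abcb10 of 2.25 FPKM. Abcb9, a lysosomal peptide transporter, did not exceed 0.22 FPKM.

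Soluble ABC proteins are counted here by symbol, although they move nothing across a membrane. Abce1, which recycles ribosomes, measured 10.7 and 20.2 FPKM in the WT libraries against 19.5, 16.3 and 19.3 in the KO libraries. WT 1 alone was low, and the log2 difference of 0.29 (95% interval -0.28 to 0.87) became -0.13 without it and 0.72 without WT 2. Abcf1, a factor of translation initiation, was the steadiest tested member and measured 18.4 and 21.1 FPKM in the WT libraries against 20.9, 20.9 and 18.4 in the KO libraries, with its highest library 1.15 times its lowest. Abcf2 and Abcf3 had means of 11.4 and 10.5 FPKM and log2 differences of -0.21 and 0.12.

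**Figure D5:**
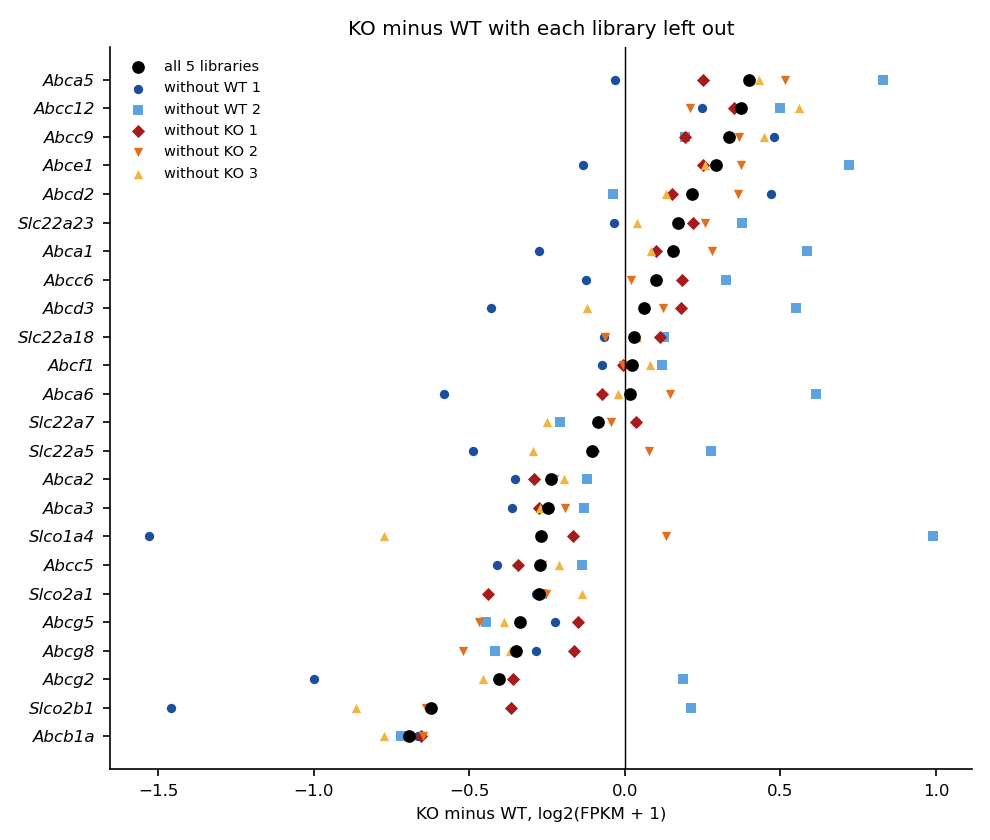
Difference KO minus WT in log2(FPKM + 1) units (horizontal axis) for 24 tested genes, with all 5 libraries (black) and with each library left out (coloured). The values of Abcb1a stay between -0.77 and -0.65, while those of Slco1a4 run from -1.53 without WT 1 to 0.99 without WT 2.

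Below the expression filter, where no test was made, Slc22a28 measured 0.05 and 0.17 FPKM in the WT libraries against 0, 0 and 0.04 in the KO libraries, and Abca7, a lipid pump of phagocytes, measured 0.79 and 0.87 FPKM in the WT libraries against 0.72, 0.47 and 0.57 in the KO libraries. Slc22a21 was listed at 0 in both WT libraries and at 0.01, 0.01 and 0.07 FPKM in KO. These 3 genes, chosen after their values were seen, were the members whose genotypes did not overlap among the 32 under the filter and above 0 in some library (9.38%). Of all genes of that kind 14.2% did not overlap.

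Genes around these families were listed by function with earlier results known. Of 13 transcription factors that govern transporter genes, all were tested and none passed, with 9 above and 4 below WT in mean log2 value. Nfe2l2 (NRF2), the antioxidant factor, and Nr1h2 (LXR beta), a sterol sensor, had the smallest p-values, with log2 differences of 0.39 and 0.24. Of 22 other transport and sterol-handling genes, 14 were tested, 7 higher and 7 lower, and none passed. Slc51b, a bile acid exporter subunit, with 6.96 and 4.48 FPKM in the WT libraries against 0.45, 1.04 and 1.49 in the KO libraries (limma adjusted p = 0.16), and Tap1, a peptide transporter with a log2 difference of 0.23, led this list. The 7 transporters left out by the rule had 3 higher and 4 lower mean log2 values and none past the threshold. The smallest p-values among them belonged to Abcb11, an exporter of bile acids with a log2 difference of -0.92, and Abcc4, where it was 0.39.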

How the data were processed

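RNA from 5 mouse liver tumours was sequenced, and titles gave each sample its genotype and number. The authors deposited FPKM per gene and library, rounded to 2 decimals, per the file headers. They also deposited their mean FPKM, their log2 fold change and their p-value with a false discovery rate per gene. HISAT2, StringTie, bcl2fastq 2.0, limma, DESeq2 and the build mm10 stand in the submitters' processing notes, without roles. Not given in the sources used here are the annotation, the strand setting and the tool behind the p-values. Depth is unknown, so no count model or counting interval was computed.

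Values were transformed to log2(FPKM + 1), which understates changes of low genes. The 10132 genes with a mean of at least 1 FPKM were compared by limma 3.58.1 in R 4.3.3 (empirical Bayes with trend, two-sided, 3 residual degrees of freedom), with Benjamini-Hochberg adjustment over all of them and a threshold of 0.05. With 2 and 3 libraries, exact permutation reaches no p below 0.1. The script was tested on simulated data.

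Members and lists were chosen with earlier results of these data known. Per-library values, and for most a log2 difference, are given for the 12 tested members with the smallest p, the 12 most abundant and 15 with known liver roles. Others were named for their role or after their values were seen. Single values of some members are not reported here, though family-wide counts include them. Positions come from GENCODE vM21 and the upstream sequence from RefSeq, both on GRCm38, the assembly of mm10. RefSeq upstream windows were found for 66 of the 83 members. Genes were grouped by position where gaps were at most 200 kb. The 15 alternatives were pseudocounts of 0.1 and 5, quantile normalization, median-ratio rescaling, a common sum, no filter, a mean of at least 5 FPKM, robust empirical Bayes, no trend, a replicate block and each library left out. Figures were drawn with matplotlib 3.10.9.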

Additional observations from a re-analysis of the deposited data

How the results depend on the processing

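No member passed the threshold in any of the 15 alternatives. The smallest adjusted p of a member was 0.125, that of Abcg2 without WT 1, and the number of members with an unadjusted limma p under 0.05 ran from 0 to 7. Genes past the threshold over the whole table numbered 1, against 32 with no expression filter, 3 with robust empirical Bayes, 62 with the replicate block, and 0 with a mean of at least 5 FPKM, a pseudocount of 5, a common sum, median-ratio rescaling or quantile normalization. Leaving out a library gave 0 to 17. The members' median log2 difference of 0.01 ran from -0.28 (without WT 1) to 0.22 (without WT 2) when a library was left out. The cause was not tested.

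Of 351 values of named members, 322 kept their sign and 29 turned, the larger part on leaving out a library, and 9 members kept it in all alternatives. No filter, a mean of at least 5 FPKM, no trend and robust empirical Bayes leave a gene's log2 difference unchanged. Signs kept there were fixed in advance and say nothing about stability, though they are counted among the 322. After median-ratio rescaling Slc22a18 was at -0.029, Abca6 at -0.041 and Abcf1 at -0.034. With the replicate block, which leaves KO 3 without a partner, Abcd3 was at -0.12 and Abca6 at -0.021, the values found without KO 3. The numbers do not pair the samples by the labels. Deviations from the group means correlated across genes at 0.09 for WT 1 with KO 1, 0.24 with KO 2 and -0.32 with KO 3. With 2 WT libraries, the deviations of WT 2 are those of WT 1 with the sign turned. The correlations of WT 2 are therefore fixed by those of WT 1, and these values cannot show which samples belong together.

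With a library left out, the log2 differences that turned ran from -0.031 to 0.83 for Abca5, -1.46 to 0.21 for Slco2b1, -1.0 to 0.19 for Abcg2, -0.43 to 0.55 for Abcd3, -0.068 to 0.13 for Slc22a18, -0.58 to 0.62 for Abca6 and -0.28 to 0.59 for Abca1. They ran from -0.074 to 0.12 for Abcf1, -0.033 to 0.38 for Slc22a23, -0.038 to 0.47 for Abcd2, -0.13 to 0.72 for Abce1, -0.49 to 0.28 for Slc22a5, -0.25 to 0.036 for Slc22a7, -1.53 to 0.99 for Slco1a4 and -0.12 to 0.33 for Abcc6. Where an arm keeps 1 WT library, that library is assumed to vary like the KO group.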

Other observations

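Slc22a26 measured 0.32 and 0.87 FPKM in the WT libraries against 0.58, 0.25 and 2.12 in the KO libraries, with its highest value in KO 3 like that of its neighbour Slc22a27. Abca3 and Abca17 lie head to head on chromosome 17, and Abca17 was at 0 to 0.01 FPKM beside the 10.3 to 14.6 FPKM of Abca3.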
